A study of Mus musculus with 6 samples.

Results

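The genes described here are 9 that mark mitochondria and other cargo for degradation by autophagy or begin and carry out that process: the kinase gene Pink1, the mitophagy receptor genes Bnip3, Bnip3l and Fundc1, the adaptor genes Sqstm1 and Optn, the LC3 genes Map1lc3a and Map1lc3b, and Becn1. They were chosen by symbol, and each of the 9 matched 1 row of the 44788 genes in the count table. RNA was sequenced from whole ovaries of wild type (WT) and Bnc1tr/tr mice, all on a C57BL/6 J background and 8 weeks old. There were 3 WT samples, numbered 1, 4 and 7, and 3 Bnc1tr/tr samples, numbered 1, 2 and 3. Each sample is called an ovary here. Bnc1 encodes the zinc finger protein basonuclin 1. The Bnc1tr/tr mice were homozygous in every cell for a short deletion in an exon of Bnc1 that shifts the reading frame and gives a premature stop, with no Cre or transgene, and the WT mice were their Bnc1+/+ littermates. The comparison of the genotypes asks whether transcripts of the mitophagy machinery differed in ovaries with truncated Bnc1.

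Mitophagy is the selective removal of mitochondria by autophagy. On damaged mitochondria the kinase PINK1 accumulates and sets off the ubiquitin tagging of outer membrane proteins, and adaptors such as optineurin and p62 bind the ubiquitin chains and LC3 on the growing autophagosome. BNIP3, BNIP3L (also called NIX) and FUNDC1 sit in the outer mitochondrial membrane and bind LC3 directly, and BNIP3 is a known target of hypoxia-inducible factors. The activity of the process is set largely by protein modification and turnover, which transcript levels do not measure. In the ovary, autophagy is known to take part in the survival and loss of germ cells and in the regression of the corpus luteum.

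The sequences upstream of Bnip3 and Optn are shown for 2 reasons. Bnip3 is a member with a known hypoxia response, and Optn is the member with the smallest p between the genotypes. They were taken from the RefSeq promoter table (GRCm38.p6), read 5′ to 3′ on the strand of the gene and ending before its start, and 6 of the 9 members had an entry (Pink1, Bnip3, Fundc1, Sqstm1, Optn and Map1lc3b). Capitals mark matches on either strand of CACGTG, the E-box core used by TFEB and other basic helix-loop-helix factors, and of ACGTG or GCGTG, the core bound by hypoxia-inducible factors. ACGTG lies within CACGTG on both strands, and GCGTG read from the other strand is CACGC. The Bnip3 stretch is chr7:138909520-138909756 on the minus strand, with the 13 bases nearest the RefSeq start left off because they lie within the GENCODE gene, and the Optn stretch is chr2:5064118-5064367 on the minus strand.
Bnip3: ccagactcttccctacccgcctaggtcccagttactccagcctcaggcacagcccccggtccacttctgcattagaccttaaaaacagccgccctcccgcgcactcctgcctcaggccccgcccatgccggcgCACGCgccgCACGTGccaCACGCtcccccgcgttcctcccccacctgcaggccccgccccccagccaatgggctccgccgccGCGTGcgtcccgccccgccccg
Optn: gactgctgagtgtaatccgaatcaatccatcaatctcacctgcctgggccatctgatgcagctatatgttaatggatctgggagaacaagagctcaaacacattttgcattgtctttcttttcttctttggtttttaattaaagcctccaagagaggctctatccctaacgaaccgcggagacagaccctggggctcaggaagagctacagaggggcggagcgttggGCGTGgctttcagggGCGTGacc
In the 250 bases before the RefSeq start, Bnip3 held 1 CACGTG, whose first base was at −108, and 3 GCGTG at −117, −99 and −35. Optn held no CACGTG and 2 GCGTG, at −23 and −8. Map1lc3b held 5 GCGTG and Pink1 held 1, and the windows of Fundc1 and Sqstm1 held none of these letters. The Fundc1 window (chrX:17572008-17572257) lies wholly within its GENCODE gene, so it is not upstream of that gene's GENCODE start. The windows of Map1lc3b, Pink1 and Sqstm1 also reach into their GENCODE genes, and the GCGTG of Map1lc3b at −64 lies there. Of 32851 RefSeq promoters, 6.02% held CACGTG, 16.6% ACGTG and 28.2% GCGTG in a window of the same length, and TGACNNNGC, the core of the antioxidant response element, was in 10.2% of them and in none of the 6 members. The Bnip3 window was 72.4% G and C, against a median of 52.4% over all promoters, and a match of these letters is no evidence of binding.

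Gene counts summed to 25247770 at the least and 34406296 at the most per ovary, and the 9 members together took 0.141% to 0.188% of them, with at least 599 reads for every member in every ovary. Levels are given as CPM, the reads of a gene scaled to the depth of its library, scaled between ovaries with TMM, a method that centres the bulk of genes, and intervals cover the spread between ovaries. Of 19423 genes tested, 1372 (7.06%) had an adjusted p under 0.05, 559 of them higher and 813 lower in Bnc1tr/tr ovaries. That count varied with the ovaries included: it was 781 without WT 1, 320 without WT 4 and 518 without WT 7. It was 979 without Bnc1tr/tr 1, 1282 without Bnc1tr/tr 2 and 634 without Bnc1tr/tr 3. Each of these fits had 1 ovary fewer. With scaling by library size alone the split turned to 1112 higher and 616 lower, and the median log2 fold change of all genes moved from 0.018 to 0.118, so changes here are read relative to that median. Bnc1 itself stood at 13.9, 13.4 and 13.1 CPM in WT 1, 4 and 7 and at 18.7, 13.7 and 11.5 CPM in Bnc1tr/tr 1, 2 and 3. A count per gene cannot show a short deletion in the transcript, so this level does not check the labels. Marker genes of granulosa cells, theca cells and oocytes were present in every ovary, as the labelled tissue calls for.

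None of the 9 members was called different between the genotypes by edgeR (quasi-likelihood, p adjusted over all genes tested), and DESeq2 and limma-voom also called 0 of 9. At an unadjusted p under 0.05 there was 1 of 9, Optn, by each of the 3 tools, where edgeR gave 24.2% of all genes tested. All 9 members passed the filter on low counts. The 95% interval of the log2 fold change lay within 1, a 2-fold change, for all 9 members, and within 0.5 for 7 of them, with Bnip3 and Map1lc3a the exceptions. The median log2 fold change of the members was −0.12 (3 above 0 and 6 below), against 0.018 for all genes tested. The values of the genotypes did not overlap for 3 of 9 members (33.3%), against 30.8% of all genes tested, so the share of members was near that of the table. These tests do not show that the levels were equal.

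**Figure D1:**
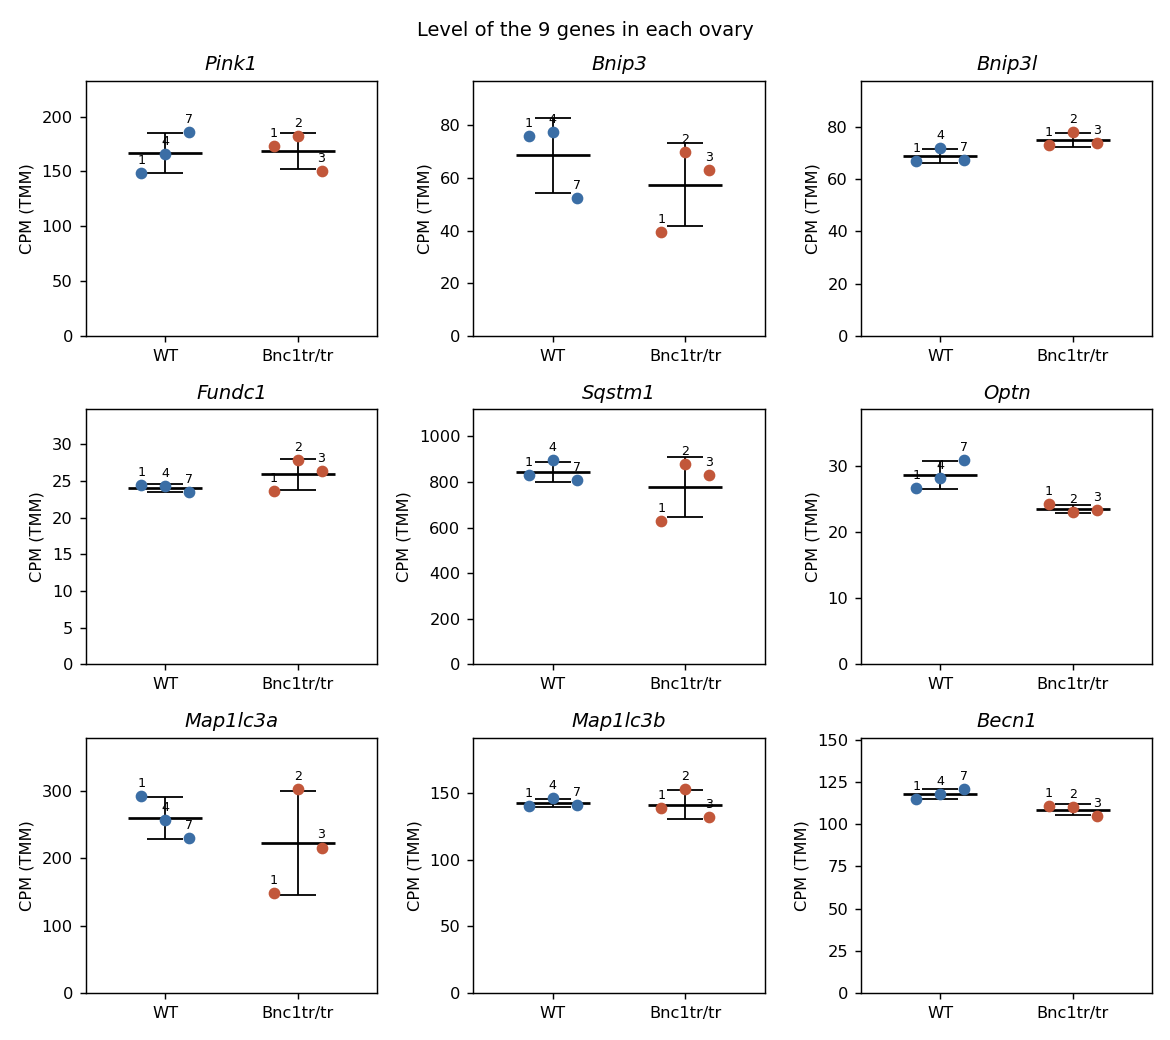
Level of each of the 9 genes in CPM (TMM, vertical axis from 0) in each WT (blue) and Bnc1tr/tr (red) ovary, with the replicate number beside its point, and a horizontal bar and whiskers for the mean ± SD (n = 3). Only Bnip3l, Optn and Becn1 had groups that did not overlap, and Bnc1tr/tr 1 was the lowest of the 6 ovaries for Bnip3, Sqstm1 and Map1lc3a.

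Pink1, the kinase that starts the ubiquitin-dependent route, stood at 149, 166 and 186 CPM in WT 1, 4 and 7 and at 173, 182 and 150 CPM in Bnc1tr/tr 1, 2 and 3. The groups overlapped throughout, and the WT ovaries held both the lowest and the highest value. The log2 fold change (Bnc1tr/tr relative to WT) was 0.011 ± 0.11 (SE, n = 3 per genotype, 95% interval −0.25 to 0.27, edgeR adjusted p = 0.97), and its sign turned in 4 of the 6 fits that left out 1 ovary, from −0.074 without WT 1 to −0.0020 without WT 4, so it has no direction here.

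Among the receptors, Bnip3 varied most. Its level was 75.8, 77.4 and 52.3 CPM in WT 1, 4 and 7 and 39.6, 69.9 and 62.8 CPM in Bnc1tr/tr 1, 2 and 3. WT 7 lay among the Bnc1tr/tr ovaries, and Bnc1tr/tr 1 was below all others. The coefficient of variation was 20.5% in WT and 27.6% in Bnc1tr/tr ovaries, where counting error alone would give 2.21% and 2.52%. The difference between the genotypes was −0.26 ± 0.23 log2 (95% interval −0.78 to 0.27, adjusted p = 0.54), and it was −0.047 without Bnc1tr/tr 1 and −0.42 without WT 7.

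Bnip3l, the paralog of Bnip3, known for clearing mitochondria from maturing red cells, was far steadier. It stood at 66.9, 71.9 and 67.3 CPM in WT and at 72.9, 77.9 and 73.6 CPM in Bnc1tr/tr ovaries. Every Bnc1tr/tr value was above every WT value. The difference of 8.89% (log2 fold change 0.12 ± 0.076, 95% interval −0.053 to 0.30, adjusted p = 0.37) did not pass the test, nor did the log2 fold change of 0.22 with scaling by library size (adjusted p = 0.11). Its coefficient of variation was 4.03% in WT and 3.60% in Bnc1tr/tr ovaries, against 2.21% from counting error in each.

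Fundc1, a receptor of hypoxia-induced mitophagy on the X chromosome, stood at 24.5, 24.3 and 23.5 CPM in WT and at 23.6, 27.8 and 26.3 CPM in Bnc1tr/tr ovaries. Bnc1tr/tr 1 lay within the WT range and the other two lay above it. A log2 fold change of 0.11 ± 0.095 was estimated (95% interval −0.11 to 0.33, adjusted p = 0.54). The WT ovaries varied by 2.28%, less than the 3.74% that counting error gives.

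Sqstm1 encodes p62, the adaptor that carries ubiquitin-tagged cargo to LC3 and is itself consumed with it. Its level was 832, 894 and 809 CPM in WT and 630, 878 and 830 CPM in Bnc1tr/tr ovaries. Bnc1tr/tr 1 was low, and the other Bnc1tr/tr ovaries lay within the WT range. Between the genotypes the log2 fold change was −0.12 ± 0.13 (95% interval −0.43 to 0.19, adjusted p = 0.64) and turned to 0.015 without Bnc1tr/tr 1.

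Optn, which encodes the ubiquitin-binding adaptor optineurin, stood at 26.7, 28.3 and 30.9 CPM in WT and at 24.3, 23.1 and 23.4 CPM in Bnc1tr/tr ovaries. Every Bnc1tr/tr ovary was below every WT ovary. The log2 fold change was −0.28 ± 0.092 (95% interval −0.49 to −0.067), a level 17.6% lower, with an unadjusted p of 0.0163 from edgeR's fit over all genes and an adjusted p of 0.11. It stayed below 0 in 13 of 13 alternative fits, with adjusted p from 0.108 to 0.267, and passed the threshold in 0 of them. Its interval was the only 1 of the 9 to leave out 0.

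The LC3 genes encode the ubiquitin-like proteins that are joined to the autophagosome membrane. Map1lc3a stood at 293, 257 and 230 CPM in WT and at 149, 303 and 216 CPM in Bnc1tr/tr ovaries, so that the Bnc1tr/tr group held both the lowest and the highest ovary. Its coefficient of variation was 12.1% in WT and 34.7% in Bnc1tr/tr ovaries, against 1.14% and 1.28% from counting error. This gave a log2 fold change of −0.22 ± 0.23 (95% interval −0.77 to 0.32, adjusted p = 0.61), and it was −0.0030 without Bnc1tr/tr 1 and −0.51 without Bnc1tr/tr 2.

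Map1lc3b stood at 140, 146 and 141 CPM in WT and at 139, 153 and 132 CPM in Bnc1tr/tr ovaries. The WT values lay inside the Bnc1tr/tr range. The log2 fold change was −0.013 ± 0.083 (95% interval −0.21 to 0.18, adjusted p = 0.94), and its sign turned to 0.086 with scaling by library size and to 0.033 without Bnc1tr/tr 3.

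Becn1 encodes Beclin 1, a subunit of the lipid kinase complex that starts the autophagosome membrane. Its level was 115, 118 and 121 CPM in WT and 111, 110 and 105 CPM in Bnc1tr/tr ovaries. The groups did not overlap, with a coefficient of variation of 2.72% in WT and 2.51% in Bnc1tr/tr ovaries. The log2 fold change was −0.12 ± 0.072 (95% interval −0.28 to 0.050, adjusted p = 0.37), a difference of 7.8% that did not pass the test, and it was −0.018 with scaling by library size.

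**Figure D2:**
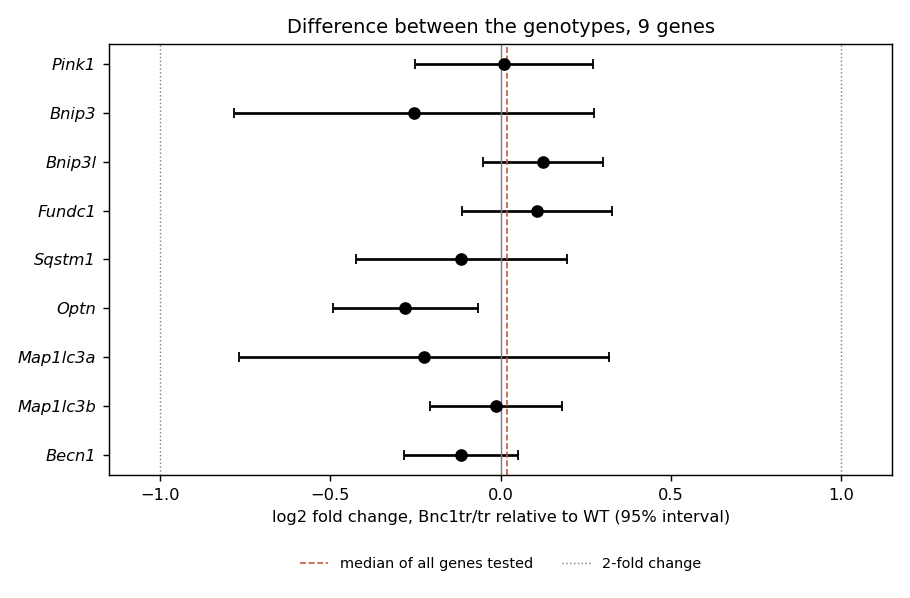
Log2 fold change of each of the 9 genes (horizontal axis, Bnc1tr/tr relative to WT, points) with its 95% interval from edgeR's fit (whiskers), the median of all genes tested (dashed line, 0.018) and 2-fold changes (dotted lines). All 9 intervals lie inside the dotted lines, those of Bnip3 and Map1lc3a are the widest, and that of Optn alone leaves out 0.

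The members did not vary together as 1 group. Bnip3, Map1lc3a and Sqstm1 were each lowest in Bnc1tr/tr 1, at −0.63, −0.66 and −0.36 on the log2 scale relative to their mean over the 6 ovaries, whereas the other 6 members lay between −0.098 and 0.051 there. Bnip3 and Map1lc3a had profiles that differed by a root mean square of 0.151 log2 over the 6 ovaries, whereas Bnip3 and its paralog Bnip3l differed by 0.348 and the LC3 genes by 0.311. The closest pair was Bnip3l and Fundc1, at 0.060, and the farthest was Pink1 and Bnip3, at 0.407. Optn and Becn1, both lower in every Bnc1tr/tr ovary, differed by 0.093. These distances describe 6 ovaries and share their libraries. They grow with the spread of each gene as well as with the shape of its profile. Steady genes therefore lie close to each other, and a steady gene lies far from a variable one. Of 13078 other genes, 1639 lay within 0.1 log2 of Bnip3l and 1212 within 0.1 log2 of Fundc1. The distances between paralogs thus do not show that their profiles differ in shape.

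**Figure D3:**
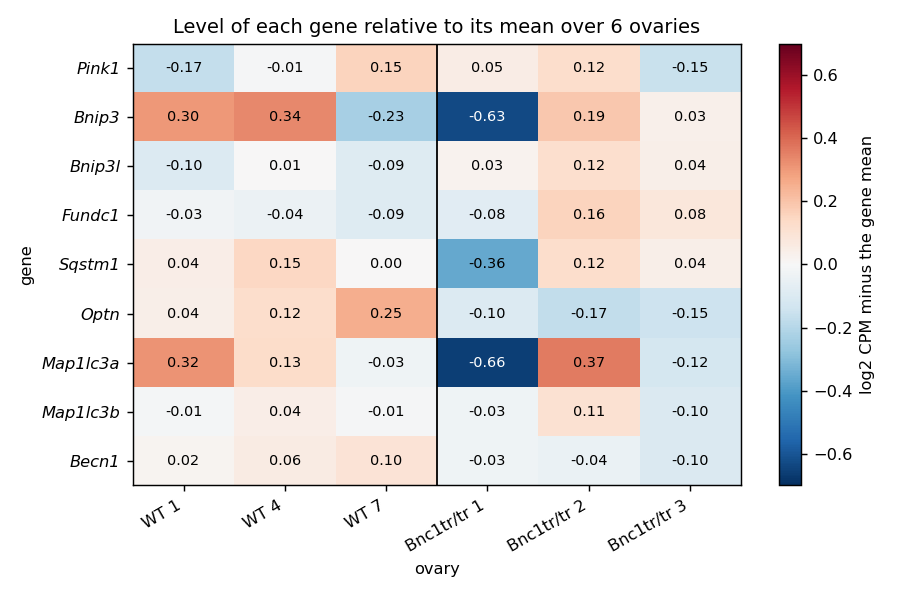
Level of each of the 9 genes (rows) in each ovary (columns, WT left of the line) as log2 CPM minus the mean of the gene over the 6 ovaries, with the value printed in each cell (blue below and red above the mean). Bnc1tr/tr 1 holds the 3 lowest cells, for Map1lc3a (−0.66), Bnip3 (−0.63) and Sqstm1 (−0.36).

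Bnc1tr/tr 1 also held the lowest summed level of corpus luteum markers and the highest of granulosa markers. Its oocyte sum (1309 CPM) was near that of Bnc1tr/tr 3 (1319 CPM). The part of cell composition in the levels of the members was not tested. The summed level of 9 corpus luteum markers was 6724 CPM in that ovary, 10434 to 11994 CPM in the other Bnc1tr/tr ovaries and 21074 to 25350 CPM in WT, with 7 of the 9 markers called lower and none at 0. That of 10 granulosa markers was 5645 CPM in Bnc1tr/tr 1, 3598 and 4999 CPM in Bnc1tr/tr 2 and 3, and 3185 to 4177 CPM in WT, with 1 called higher. In RNA from whole ovaries, fewer cells of a type and less RNA per cell cannot be told apart. The summed levels of 6 endothelial markers, 4 of them called lower, were 347 to 391 CPM in Bnc1tr/tr and 521 to 697 CPM in WT ovaries, and those of 12 oocyte markers, 3 of them called higher, were 866 to 1319 CPM and 725 to 924 CPM. Theca (6 markers, 1901 to 3062 CPM in Bnc1tr/tr and 2051 to 2512 CPM in WT), stroma and smooth muscle (9 markers, 3601 to 4833 and 3567 to 4117 CPM), macrophage and leukocyte (8 markers, 216 to 422 and 346 to 363 CPM), surface epithelium (8 markers, 342 to 446 and 315 to 363 CPM) and blood markers (5 markers, 61.4 to 226 and 125 to 206 CPM) overlapped between the genotypes with none called. Markers of tissue beside the ovary varied by ovary: 8 oviduct markers, of which 6 were tested, summed to 521 CPM in Bnc1tr/tr 3 and 142 CPM in WT 1 but 10.4 to 26.7 CPM elsewhere, and 6 adipose markers, 1 of them called higher, summed to 337 and 250 CPM in Bnc1tr/tr 1 and 2 but 16.5 to 91.5 CPM elsewhere.

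The ratio of the LC3 paralogs, which does not depend on scaling between ovaries, was 0.479, 0.568 and 0.613 reads of Map1lc3b per read of Map1lc3a in WT and 0.932, 0.504 and 0.610 in Bnc1tr/tr ovaries. Bnc1tr/tr 1 was high and the other two lay within the WT range. The mean log2 ratio was −0.86 ± 0.18 (SD) in WT and −0.60 ± 0.45 in Bnc1tr/tr, a difference of 0.26 (exact two-sided permutation test, n = 3 per genotype, p = 0.50, where the smallest p the design allows is 0.10). The ratio of Bnip3l to Bnip3 was 0.883, 0.929 and 1.29 in WT and 1.84, 1.11 and 1.17 in Bnc1tr/tr ovaries. It too was highest in Bnc1tr/tr 1, with WT 7 above the other Bnc1tr/tr ovaries, and the mean log2 ratios of 0.025 ± 0.29 and 0.42 ± 0.40 (SD) differed by 0.40 (exact two-sided permutation test, n = 3 per genotype, p = 0.30). Adjusted over both ratios by Benjamini-Hochberg, each exact p was 0.50.

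Per kilobase of union exon, Sqstm1 was the most abundant member in WT ovaries, at 252 ± 13.1 CPM per kilobase (SD, n = 3), followed by Map1lc3a at 220 ± 26.6. The ranges of these over the 6 ovaries overlapped. Pink1 followed at 62.6 ± 6.94, apart from both neighbours in the order, and then Bnip3 at 30.2 ± 6.20, Map1lc3b at 18.9 ± 0.429 and Bnip3l at 17.8 ± 0.718, where the range of Map1lc3b overlapped with those of both others. Becn1 at 16.7 ± 0.454, Fundc1 at 10.2 ± 0.233 and Optn at 7.63 ± 0.572 CPM per kilobase closed the order, each below the range of the member before it over the 6 ovaries. In Bnc1tr/tr ovaries the order was the same except that Bnip3l (19.4 ± 0.697) stood above Map1lc3b (18.8 ± 1.42). Per kilobase of the longest coding transcript, Map1lc3b, whose annotated exons span 7517 bases but whose longest coding transcript has 2633, rose above Bnip3 to 54.1 ± 1.23 CPM per kilobase, and Becn1 (27.0 ± 0.735) passed Bnip3l (21.1 ± 0.850). The place of these members therefore depends on the length used.

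**Figure D4:**
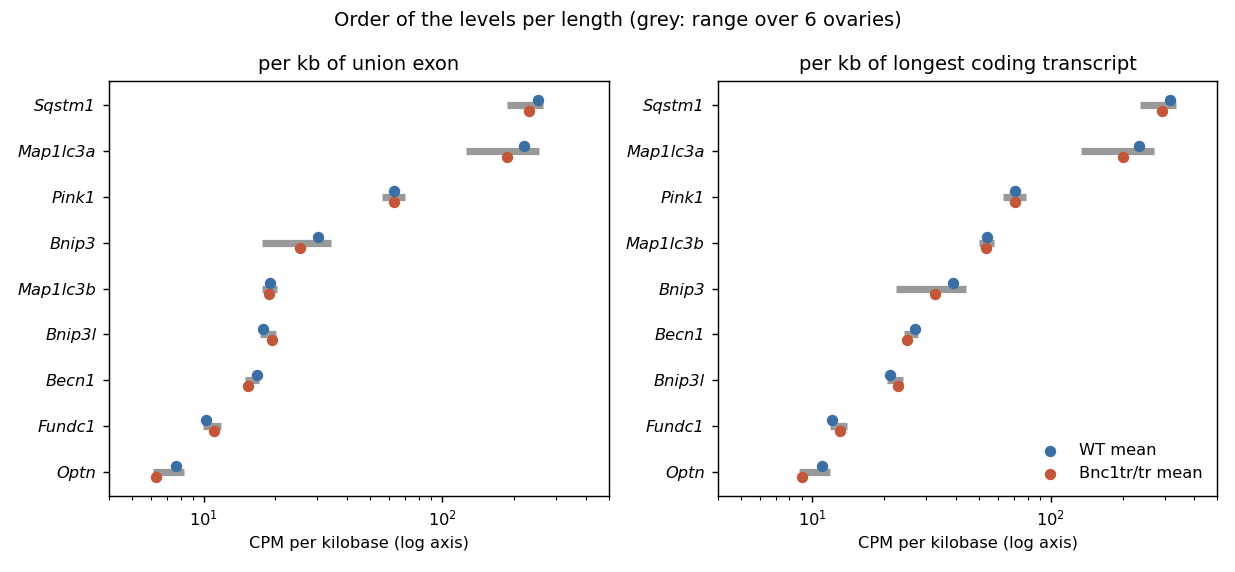
Mean level of the 9 genes in WT (blue) and Bnc1tr/tr (red) ovaries in CPM per kilobase on a log axis, with the range over 6 ovaries in grey, per kilobase of union exon (left) and of the longest coding transcript (right). Sqstm1, Map1lc3a and Pink1 hold the top of both orders and Fundc1 and Optn the end, while Map1lc3b moves above Bnip3.

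Some members share exon or sequence with other genes, and whether the authors' counting used strand is not given in the sources used here. On GRCm38 with the GENCODE M21 annotation, the antisense-oriented gene Cntd1 overlaps 43.9% of the annotated exon of Becn1 (chr11:101285952-101302286, minus strand) and had 26 to 56 reads per ovary. Mrnip overlaps 17.3% of the exon of Sqstm1 (chr11:50199366-50210827, minus strand) and had 338 to 509 reads. Of the stretches of 50 bases in Bnip3 (chr7:138890836-138909519, minus strand), 47.2% also occur in other annotated genes. Among them are the copies Gm16439, with 360 to 601 reads, and Gm6532, with 55 to 186 reads. AC160336.1 (33.9% of the stretches) and Gm45507 (15.9%) share more, but had no counts under these names. Map1lc3b (chr8:121590361-121598760, plus strand) shares 6.01% of its stretches, and its copy Gm6055 had 1537 to 2060 reads. With the reads of Gm16439 and Gm6532 added to Bnip3 and those of Gm6055, Gm12727 and Gm6054 to Map1lc3b, the log2 fold changes were −0.19 and −0.033. Neither passed the test, and AC160336.1 and Gm45507 were not covered by this. Gm9419 and Gm14506, which share fewer stretches with Bnip3 and had at most 45 and 4 reads per ovary, were not added either. Bnip3l (chr14:66985239-67008877, minus strand) shares 20.8% of its stretches with Bnip3l-ps, Optn (chr2:5020642-5064051, minus strand) 0.658% and Pink1 (chr4:138313409-138326307, minus strand) 3.03%, and Fundc1 (chrX:17556564-17572325, minus strand) and Map1lc3a (chr2:155276297-155278073, plus strand) none.

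The 3 genes whose profile over the 6 ovaries lay closest to that of Optn, among 13078 genes with a mean of at least 5 CPM, were Tab1 (root mean square difference 0.0137 log2), Psme4 (0.0208) and Ttc3 (0.0213). Tab1 encodes a binding partner of the kinase TAK1, Psme4 a proteasome activator and Ttc3 a ubiquitin ligase. Tab1 stood at 67.7, 71.9 and 79.0 CPM in WT and at 61.6, 59.7 and 60.8 CPM in Bnc1tr/tr ovaries, with an edgeR adjusted p of 0.105. A profile within 0.1 log2 of that of Optn was held by 759 of the 13078 genes, so at this cutoff it was not particular to Optn. The same cutoff gave from 2 genes, for Bnip3, to 2398, for Becn1, so the count depends on the profile.

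Of 71 other genes in 7 lists of the autophagy machinery, 2 were called lower in Bnc1tr/tr ovaries and none higher. That was 2.82% against 7.06% of all genes tested, and the median log2 fold change of the 71 was −0.044. Phb2, which encodes prohibitin 2, a protein of the inner mitochondrial membrane that binds LC3 once the outer membrane ruptures, stood at 393, 370 and 305 CPM in WT and at 215, 247 and 243 CPM in Bnc1tr/tr ovaries. It fell by a log2 fold change of −0.60 ± 0.12 (SE, adjusted p = 0.026), and the adjusted p rose to 0.075 without WT 1, 0.12 without WT 4, 0.055 without Bnc1tr/tr 1 and 0.074 without Bnc1tr/tr 3. Atg101, a subunit of the ULK1 complex listed as 9430023L20Rik, stood at 56.8, 54.7 and 51.3 CPM in WT and at 38.9, 43.4 and 44.2 CPM in Bnc1tr/tr ovaries (log2 fold change −0.37 ± 0.087, adjusted p = 0.047). Its call was lost in each of the 6 fits that left out 1 ovary, with adjusted p from 0.072 without Bnc1tr/tr 2 to 0.17 without WT 4, and with library size scaling, no filter and limma-voom, though its direction held in 13 of 13 alternatives. Both genes fell in ovaries where the corpus luteum and endothelial markers above were also lower, and the part of those cells in the fall was not tested.

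Apart from Phb2 and Atg101, no gene of the machinery lists was called by edgeR with all 6 ovaries. Of all genes tested, 24.2% had an unadjusted p under 0.05, the share to set beside the counts of such genes below. With scaling by library size the medians of several lists turned above 0, to 0.098 for the PINK1 pathway, 0.085 for other receptors and adaptors, 0.076 for the ULK1 complex, 0.021 for conjugation and 0.040 for the hypoxia-inducible genes below, while the median of all genes rose to 0.118. In the list of 14 other genes of the PINK1 pathway, with a median of −0.0030 and 1 gene at an unadjusted p under 0.05, the lowest log2 fold change was −0.30 for Mfn2, a fusion protein of the outer membrane (adjusted p = 0.080). DESeq2 called 1 gene of this list, Mfn2, as did edgeR without Bnc1tr/tr 2 (−0.37, adjusted p = 0.0496), and limma-voom called 0. Of the 12 other receptors and adaptors, Fundc2 was the highest, at 0.13 (adjusted p = 0.44). The 3 other LC3 and GABARAP genes split, with Gabarapl1 at 0.25 (adjusted p = 0.18) and Gabarapl2 at −0.31 (adjusted p = 0.20), 2 of 3 at an unadjusted p under 0.05, and 0 called by DESeq2 or limma-voom. In the ULK1 complex, which starts autophagy, Atg13 was the highest of 5, at 0.15 (adjusted p = 0.47). Of 7 other genes of the Beclin 1 complex, 0 had an unadjusted p under 0.05 and 0 were called by DESeq2 or limma-voom, between Ambra1 at −0.087 (adjusted p = 0.68, 0.012 with scaling by library size) and Nrbf2 at 0.22 (adjusted p = 0.25). Of 18 genes of LC3 conjugation and membrane growth, 5 had an unadjusted p under 0.05 and 0 were called by any of the 3 tools, between the LC3 protease gene Atg4a at −0.52 (adjusted p = 0.16) and Atg5, part of the conjugating enzyme, at 0.33 (adjusted p = 0.13).

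No lysosomal gene passed edgeR's test with all 6 ovaries, and without Bnc1tr/tr 2 there was 1, the protease gene Ctsd, named here after its values were seen. Of 12 listed genes, 10 had a log2 fold change below 0, with a median of −0.27 against 0.018 for all genes tested, 6 did not overlap between the genotypes, all of them lower (against 30.8% of all genes tested), and 6 had an unadjusted p under 0.05 (against 24.2% of all genes tested). The latter count was 1 without WT 4 and 3 without Bnc1tr/tr 3 or with scaling by library size. With scaling by library size the median was −0.17 against 0.118 for all genes. Tfeb, the master regulator of lysosome and autophagy genes, was the lowest, at 19.2, 18.6 and 17.7 CPM in WT and 10.1, 14.5 and 13.5 CPM in Bnc1tr/tr ovaries (log2 fold change −0.55 ± 0.15, adjusted p = 0.066). Its paralog Tfe3 was the highest, at 0.087 (adjusted p = 0.61). DESeq2 called 3 of the 12 lower and limma-voom called 0. The corpus luteum markers, lower in the same ovaries, were 6724 to 11994 CPM against 21074 to 25350 CPM in WT, and their part was not tested.

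The hypoxia-inducible genes, to which Bnip3 also belongs, were 2 of 14 called, both lower (14.3%, against 7.06% of all genes tested in either direction). Vegfa, the endothelial growth factor gene, stood at 248, 342 and 261 CPM in WT and at 148, 141 and 158 CPM in Bnc1tr/tr ovaries, with no overlap. Its log2 fold change of −0.93 ± 0.13 (edgeR adjusted p = 0.0080) passed the threshold in 13 of 13 alternatives, from −1.02 to −0.78. Slc2a1, the glucose transporter GLUT1, stood at 41.2, 47.7 and 64.4 CPM in WT and at 32.4, 31.2 and 31.9 CPM in Bnc1tr/tr ovaries (−0.68 ± 0.16, adjusted p = 0.043). Its call was lost in 5 of the 6 fits without 1 ovary, the exception being that without WT 1, with adjusted p from 0.067 without WT 7 to 0.13 without WT 4, and with library size scaling and limma-voom. The list had a median of −0.061, and Ankrd37 was its highest, at 0.72 (adjusted p = 0.33) on a level of 0.724 to 2.36 CPM. Bnip3, at −0.26, was not called, and unlike Vegfa its groups overlapped. Endothelial and corpus luteum markers were lower in the same 3 ovaries as Vegfa and Slc2a1, and their part was not tested.

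Of 9 target genes of the antioxidant factor NRF2, of which Sqstm1 is another known target, 0 were called by edgeR or limma-voom. In edgeR 4 had an unadjusted p under 0.05 (against 24.2% of all genes tested), and DESeq2 called 1 higher and 1 lower. Hmox1, heme oxygenase, was the lowest, at 109, 127 and 110 CPM in WT and 42.6, 80.2 and 70.2 CPM in Bnc1tr/tr ovaries (−0.84 ± 0.21, adjusted p = 0.057), and Nqo1 the highest, at 0.98 ± 0.42 (adjusted p = 0.20), with Bnc1tr/tr 1 (5.44 CPM) within the WT range of 5.24 to 7.77 CPM and Bnc1tr/tr 2 and 3 at 18.7 and 16.8 CPM. Without Bnc1tr/tr 1 both passed the threshold, Nqo1 at 1.36 (adjusted p = 0.013) and Hmox1 at −0.62 (adjusted p = 0.024). Hmox1 also passed in edgeR without Bnc1tr/tr 2 (−1.03, adjusted p = 0.042) and with no filter (−0.84, adjusted p = 0.026). DESeq2 called Hmox1 lower (adjusted p = 0.0015) but did not call Nqo1 (adjusted p = 0.072). The BCL2 family, to which BNIP3 and Beclin 1 bind, was listed with 18 genes, of which 15 were tested. None was called by edgeR, DESeq2 or limma-voom, though with scaling by library size edgeR called 1 higher (Bok, named after its values were seen). In edgeR 4 had an unadjusted p under 0.05 (against 24.2% of all genes tested). The median was −0.13, between Pmaip1 at −0.60 (adjusted p = 0.32) and Bid at 0.34 (adjusted p = 0.28).

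**Figure D5:**
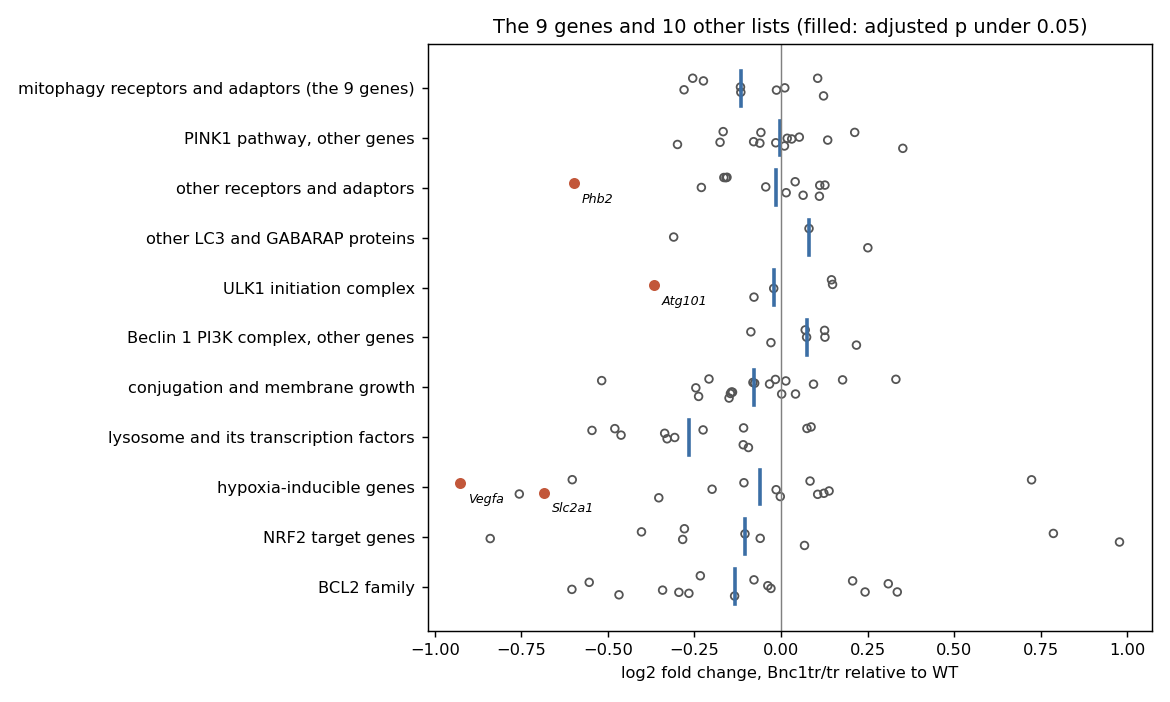
Log2 fold change (horizontal axis, Bnc1tr/tr relative to WT) of each tested gene in the list of 9 genes and 10 other lists (rows, vertical jitter within a row is arbitrary), with filled red points for an adjusted p under 0.05 and blue bars for the median of the list. The filled points are Phb2, Atg101, Vegfa and Slc2a1, all below 0, and none is among the 9 genes.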

How the data were processed

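TRIzol-extracted RNA of whole ovaries was made into Ion Total RNA-Seq libraries and read single-end on an Ion Proton. The deposited values are raw counts per gene and ovary, which the authors did not normalize. The aligner, counting tool and annotation are not given in the sources used here, and the submitters' processing notes name the builds mm10 and Sscrofa10.2. Counts were filtered (filterByExpr, minimum count 10), scaled with TMM and compared with edgeR 4.0.16 (R 4.3.3, quasi-likelihood, two-sided, no covariates), with Benjamini-Hochberg adjustment over 19423 of the 31717 genes with reads and a threshold of 0.05. SEs and 95% intervals came from the same fit. On simulated data for this comparison with 19423 genes, changes were given to a random subset of genes with a mean above 5 CPM. In that subset, 78% of genes changed by 1 log2 and 99% of those changed by 2 were called. Smaller changes, such as those estimated for the members, were not simulated. In the labels the replicates carry separate numbers only, while the paper describes 3 biological replicates per group. The p values measure the spread between these samples, with any technical part included. The members and lists were chosen with earlier results of these data known. The text names all members, Bnc1, each list's called, highest and lowest genes, the 3 nearest profiles to the member with the smallest p, and each marker list, except 1 listed gene that is not reported here. Of 208 listed genes, 203 matched by symbol and 5 by RefSeq synonym. Alternatives were DESeq2 1.42.0 and its size factors, limma-voom (limma 3.58.1), library size scaling, other filters, leaving out each ovary and, added after seeing the data, adding reads of near-copies. The oocyte libraries of the study were not analysed here.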

Additional observations from a re-analysis of the deposited data

How the results depend on the processing

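None of the 9 members passed the threshold in any of the 13 alternative fits. The sign turned for Pink1 (0.011, and 0.087 at most among the fits without 1 ovary, 0.109 with library size scaling), to −0.074, −0.0020, −0.010 and −0.049 without WT 1, WT 4, Bnc1tr/tr 1 and Bnc1tr/tr 2, for Sqstm1 to 0.015 without Bnc1tr/tr 1 (lowest −0.21 without Bnc1tr/tr 2), for Map1lc3b to 0.086 with library size scaling and 0.033 without Bnc1tr/tr 3 (lowest −0.076 without Bnc1tr/tr 2), and for the list gene Ambra1 to 0.012 with library size scaling. The cause was not tested. The count of called genes in the 10 other lists, 4, was 10 with DESeq2, 2 with limma-voom and 1 to 5 when 1 ovary was left out (2 without WT 1, 1 without WT 4, 2 without WT 7 and 1 without Bnc1tr/tr 3, where fewer samples were fitted). The difference of the Map1lc3b to Map1lc3a log2 ratio ran from 0.012 to 0.46 and that of Bnip3l to Bnip3 from 0.17 to 0.57. With the longest coding transcript as length, 5 of 9 members kept their place in the order. No paired analysis was possible because the genotypes share only replicate number 1 and nothing in the labels pairs the ovaries. With 3 ovaries per genotype, every member's interval leaves out changes beyond 1 log2, and those of 7 members leave out changes beyond 0.5.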
